A study of Mus musculus with 21 samples.

Results

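Dusp8, Plppr3, Rmc1, Mmp24, Ndrg4, Pdzrn3 and Sez6l2 are 7 genes that had been picked as genes with less signal in CD15 positive than in CD15 negative mouse medulloblastoma cells. They are 7 of the 18193 genes that the array platform names by a single symbol, and 15 of its 34945 probe sets with 1 gene symbol read them. The arrays are Affymetrix Mouse Genome 430 2.0 arrays, on which a probe set is a group of short probes for 1 transcript, and each value is a probe set signal on a linear scale. RNA came from the cerebellum, as primary tumour cells of Patched medulloblastomas sorted by the surface carbohydrate CD15. The 4 groups were Math1-GFP tumour cells positive for CD15 (n = 4 arrays), Math1-GFP tumour cells negative for CD15 (n = 5), conventional Patched tumour cells positive for CD15 (n = 6) and conventional Patched tumour cells negative for CD15 (n = 6). The labels give neither age, strain nor a second allele for any group, and they do not say whether a sample was 1 tumour or a pool, so the spread between arrays may in part be technical. The descriptions of Math1-GFP samples also say conventional, and the titles were followed. What is shared by all groups is the Patched tumour origin: Patched (Ptch1) is the receptor that holds Hedgehog signalling down, and the Math1 gene (Atoh1) encodes a regulator of granule neuron precursors, named here with GFP, a fluorescent protein.

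Most of the 7 genes are best known from neurons. Granule neuron precursors of the cerebellum divide under Hedgehog signalling, and as they leave the cell cycle they switch on genes for axons, membranes and synapses. Medulloblastomas of Patched mice arise in this lineage and hold both dividing cells and cells that have begun to differentiate. Dusp8 removes phosphate from the stress-activated JNK and p38 kinases, Mmp24 is a membrane-anchored metalloproteinase, and Pdzrn3 is a ubiquitin ligase with PDZ domains. Plppr3 and Sez6l2 are membrane proteins of the brain, Ndrg4 is a cytoplasmic protein of brain and heart, and Rmc1 is a subunit of the Mon1-Ccz1 complex, which activates Rab7 on late endosomes.

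The members share a direction across fractions because they were chosen for it, and shared regulation was not tested. The upstream sequences of 3 of them are shown with motif letters marked. They are the 250 bases before an annotated transcript start, written 5′ to 3′ on the gene's strand, from RefSeq (GRCm38.p6), whose table matched 5 of the 7 members. Capitals mark TGACGTCA, the letters of the cyclic AMP response element, and CAGGTG, an E-box, either of them on either strand.
Dusp8: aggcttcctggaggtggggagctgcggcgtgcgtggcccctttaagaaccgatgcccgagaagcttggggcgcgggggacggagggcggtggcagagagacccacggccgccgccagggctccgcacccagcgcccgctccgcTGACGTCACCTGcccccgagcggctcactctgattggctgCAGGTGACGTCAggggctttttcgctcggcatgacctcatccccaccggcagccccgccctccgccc
Ndrg4: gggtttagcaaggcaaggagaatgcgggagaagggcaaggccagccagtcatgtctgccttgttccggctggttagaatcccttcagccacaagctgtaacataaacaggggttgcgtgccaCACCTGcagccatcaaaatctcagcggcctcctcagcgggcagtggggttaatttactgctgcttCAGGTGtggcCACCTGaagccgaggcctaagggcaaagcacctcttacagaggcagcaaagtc
Plppr3: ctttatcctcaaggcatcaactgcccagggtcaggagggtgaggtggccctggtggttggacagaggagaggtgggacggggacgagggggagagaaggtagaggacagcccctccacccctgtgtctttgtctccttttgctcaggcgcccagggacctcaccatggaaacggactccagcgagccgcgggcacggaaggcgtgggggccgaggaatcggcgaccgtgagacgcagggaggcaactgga
The Dusp8 sequence (chr7:142095285-142095534, minus strand) held TGACGTCA 2 times, with the first letter 107 and 63 bases before the start, and each copy overlaps a CAGGTG by its last or first letters. TGACGTCA occurred in 1.55% of 32851 regions of the same length and 2 or more times in 0.0304% of them. The Ndrg4 sequence is that of the first of 4 listed starts (chr8:95676724-95676973, plus strand) and held CAGGTG 3 times, while those of the other 3 starts held it 0, 1 and 0 times. CAGGTG occurred in 17.2% of all regions and 2 or more times in 2.06% of them. The Plppr3 sequence (chr10:79874635-79874884, minus strand) held neither motif, and nor did those of Mmp24 and Pdzrn3. CAGCTG, searched in the same way, was in none of the 8 upstream sequences of the 5 members and in 4271 of the 32851 regions, and TATAAA was in 1 of them, at the fourth Ndrg4 start, and in 12.4% of all regions. The GC box GGGCGG, which is not in capitals here, was found for 4 of the 5 members, all but Plppr3, and in 32.7% of all regions. It occurred 3 times each for Dusp8 and Mmp24, 2 times for Pdzrn3 and 2 times each at the second and the third Ndrg4 start. That count is per gene, with 4 starts for Ndrg4, while the share is per region. The 8 sequences were also rich in G and C, from 56.0% (first Ndrg4 start) to 79.2% (Mmp24), with 71.6% for Dusp8. The median of all regions was 52.4%. The part of base composition in the motif matches was not tested. The left part of the RE1 element, TTCAGCACC (0.301% of all regions), and its right part (0.0974%) were in none of the 8 sequences. A match or its absence concerns these letters in this window alone.

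The arrays had a common scale but not a common distribution, and values were analysed as log2(signal + 32), which makes differences of dim genes smaller. Of the 15 probe sets, 12 passed a filter on dim probe sets (the 40th percentile of the mean log2 value), and each gene is given by its brightest probe set unless stated. Ptch1, Gli1 and Atoh1, which mark the tumour type, had signals of at least 620, 226 and 343 on all 21 arrays. All 7 genes were tested in the whole table of 12367 genes. The number of arrays limits the precision. Among conventional arrays, numbers 2 to 5 share a form of title that array 6 and the unnumbered array of each fraction do not have, and values are also given within these 2 sets.

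The lower signal in CD15 positive cells is what chose the 7 genes, so the following CD15 values are a description with no test. In both kinds of tumour every CD15 positive array lay below every CD15 negative array for 6 of the 7 genes, the exception being Pdzrn3. Of all 12367 genes, 2.78% showed that order in Math1-GFP and 2.52% in conventional tumours. The median log2 difference of the 7 genes, CD15 positive minus negative, was -1.08 in Math1-GFP and -1.53 in conventional tumours, against 0.0048 and -0.017 for all genes. These are bulk samples, in which fewer cells of a type and less RNA per cell cannot be told apart.

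**Figure D1:**
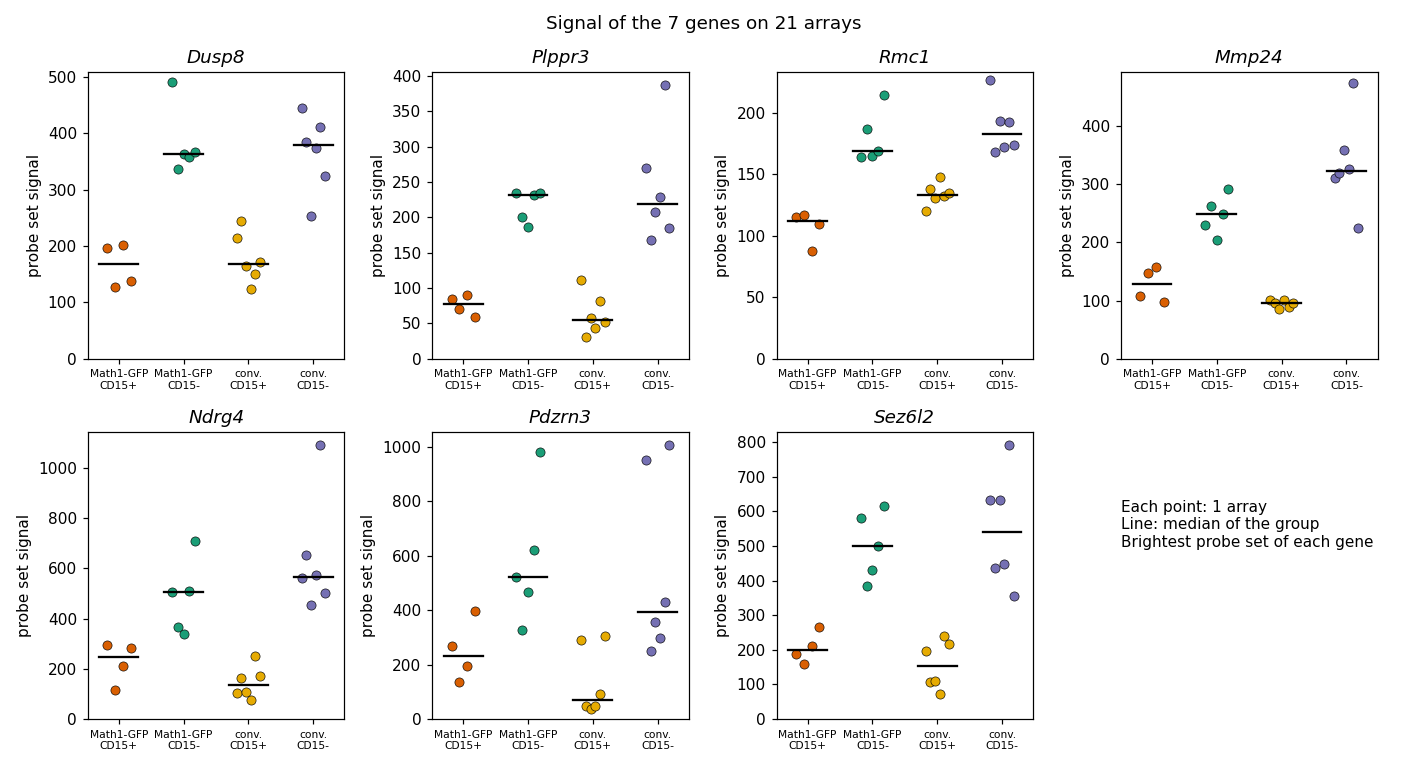
Signal (vertical axis, linear, from 0) of the brightest probe set of each of the 7 genes on the 21 arrays, with 1 point per array and a line at the median of each of the 4 groups. The CD15 positive points lie below the CD15 negative points of the same model for each gene but Pdzrn3, whose conventional points fall into a higher and a lower set in both fractions.

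Dusp8, the MAP kinase phosphatase whose upstream sequence holds TGACGTCA, had signals of 197, 127, 203 and 138 in the Math1-GFP CD15 positive arrays, against 491, 337, 364, 359 and 368 in the Math1-GFP CD15 negative arrays. In conventional tumours the lowest, median and highest signals were 125, 169 and 246 in CD15 positive cells, against 254, 379 and 446 in CD15 negative cells. The highest conventional CD15 positive array came within 0.042 log2 of the lowest CD15 negative one, so the gap there was narrow, while in Math1-GFP tumours it was 0.66. The log2 difference was -1.08 ± 0.18 (SE) in Math1-GFP and -0.92 ± 0.15 in conventional tumours. The other probe sets of Dusp8 did not all behave alike. In a fit of every probe set, one had differences of -0.65 in Math1-GFP and -1.28 in conventional tumours, with a conventional gap of 0.71 log2. Its CD15 negative medians, 377 in Math1-GFP and 357 in conventional tumours, were close to those of the probe set used. The dimmest had differences of -0.58 and -0.07. The dimmest had a median of 35.1 in conventional CD15 positive arrays, against 47.9 in conventional CD15 negative arrays, and its groups overlapped there.

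Plppr3, a relative of the phospholipid phosphatases that is found on axons, has 1 probe set on the array. Its signals were 83.8, 69.8, 90.0 and 59.5 in the Math1-GFP CD15 positive arrays, against 234, 201, 187, 231 and 234 in the Math1-GFP CD15 negative arrays. In conventional tumours they ran from 30.1 through a median of 54.9 to 112 in CD15 positive cells, against 168, 218 and 388 in CD15 negative cells. The groups did not overlap in either model, and the Math1-GFP gap of 0.84 log2 was the widest of the 7 genes there. The log2 difference was -1.21 ± 0.21 (SE) in Math1-GFP and -1.53 ± 0.18 in conventional tumours.

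Mmp24, which is also called MT5-MMP and cuts proteins at the surface of neural cells, was the gene whose conventional arrays separated most widely. Its signals were 107, 148, 157 and 97.6 in the Math1-GFP CD15 positive arrays, against 230, 262, 205, 248 and 292 in the Math1-GFP CD15 negative arrays. In conventional tumours they lay between 86.2 and 102 (median 96.2) in CD15 positive cells, against 226 to 474 (median 323) in CD15 negative cells. The 6 conventional CD15 positive arrays thus lay close together, and the gap to the lowest CD15 negative array was 0.95 log2. The log2 difference was -0.82 ± 0.15 (SE) in Math1-GFP and -1.51 ± 0.13 in conventional tumours. A dimmer probe set for the same gene and the same listed accession had -0.66 in Math1-GFP but only -0.24 in conventional tumours, where its groups overlapped, and the remaining probe set did not pass the filter.

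Rmc1, the endosomal regulator, showed the smallest differences of the 7 genes and also the smallest spread within groups (0.13 log2, SD). Its signals were 116, 117, 87.9 and 109 in the Math1-GFP CD15 positive arrays, against 164, 187, 165, 169 and 215 in the Math1-GFP CD15 negative arrays. In conventional tumours the lowest, median and highest were 120, 133 and 148 in CD15 positive cells, against 168, 183 and 226 in CD15 negative cells. The groups did not overlap in either model, although the log2 difference was only -0.60 ± 0.11 (SE) in Math1-GFP and -0.40 ± 0.09 in conventional tumours. The probe set used is of a kind that can read more than 1 transcript, and the other, dimmer one did not pass the filter.

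Ndrg4, a member of the N-myc downstream regulated family, had one of the larger conventional differences, close to that of Pdzrn3. Its signals were 295, 115, 211 and 282 in the Math1-GFP CD15 positive arrays, against 505, 367, 337, 509 and 709 in the Math1-GFP CD15 negative arrays. In conventional tumours the lowest, median and highest were 77.4, 135 and 251 in CD15 positive cells, against 455, 567 and 1091 in CD15 negative cells. The highest value belonged to the conventional CD15 negative array 5, and no groups of a model overlapped. The log2 difference was -1.03 ± 0.29 (SE) in Math1-GFP and -1.93 ± 0.25 in conventional tumours, and the other probe set had -0.87 and -1.15. Like that of Rmc1, the Ndrg4 probe set used is of a kind that can read more than 1 transcript.

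Sez6l2, a transmembrane protein of neurons whose relatives are cut by the protease Bace1, had signals of 188, 159, 211 and 266 in the Math1-GFP CD15 positive arrays, against 582, 384, 432, 499 and 614 in the Math1-GFP CD15 negative arrays. In conventional tumours the lowest, median and highest were 72.2, 153 and 239 in CD15 positive cells, against 355, 540 and 793 in CD15 negative cells. The fractions were apart in both models, with log2 differences of -1.17 ± 0.26 (SE) in Math1-GFP and -1.66 ± 0.22 in conventional tumours. Both probe sets of Sez6l2 moved the same way, the other one by -0.96 and -1.53. The brighter of them is of a kind that may cross-hybridise to other transcripts.

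Pdzrn3, known as a ubiquitin ligase at neuromuscular junctions, was the most variable of the 7 genes, with a spread of 0.80 log2 (SD) within groups. Its signals were 267, 138, 193 and 397 in the Math1-GFP CD15 positive arrays, against 522, 328, 465, 622 and 982 in the Math1-GFP CD15 negative arrays. One Math1-GFP CD15 positive array, number 9, was above the lowest CD15 negative array, number 4. In conventional tumours the lowest, median and highest were 38.6, 70.0 and 306 in CD15 positive cells, against 249, 393 and 1005 in CD15 negative cells. The log2 difference was -1.13 ± 0.49 (SE) in Math1-GFP and -1.91 ± 0.42 in conventional tumours. The second Pdzrn3 probe set was near 0 on all arrays (at most 7.26) and did not pass the filter.

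The overlap of Pdzrn3 in conventional tumours followed the 2 sets of arrays that differ in the form of their titles. In arrays 2 to 5, Pdzrn3 was between 38.6 and 90.5 in CD15 positive cells, against 249 to 431 in CD15 negative cells. In array 6 and the unnumbered arrays it was 306 and 290 in CD15 positive cells, against 1005 and 949 in CD15 negative cells. Within each set the fractions did not overlap, and the difference was -2.06 log2 in arrays 2 to 5 and -1.61 log2 in the other 4 arrays. The second set has only 2 arrays of each fraction, and the share of all genes without overlap within a set was not computed. The other 6 genes did not overlap over all conventional arrays, so they could not overlap within either set. Their differences were between -0.33 (Rmc1) and -2.02 (Ndrg4) in arrays 2 to 5. In the other 4 arrays they were between -0.54 (Rmc1) and -1.76 (Ndrg4).

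**Figure D2:**
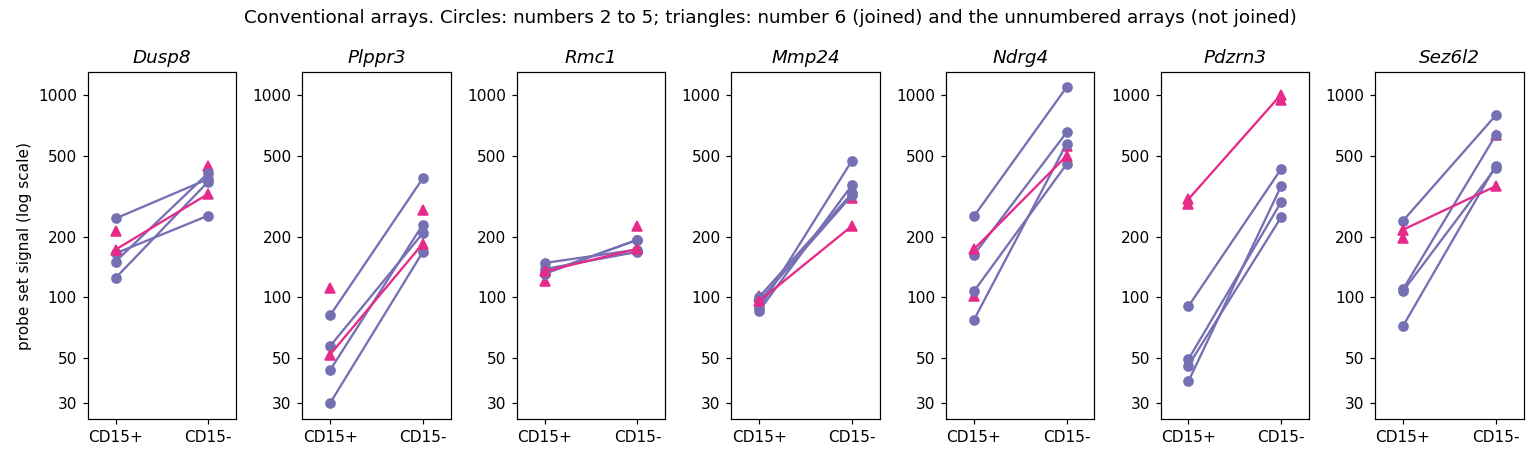
Signal (vertical axis, log scale) of the 7 genes in the CD15 positive and CD15 negative arrays of conventional tumours, with lines joining arrays of the same title number. All lines climb towards CD15 negative cells, and for Pdzrn3 the triangles (array 6 and the unnumbered arrays) lie above the circles (arrays 2 to 5) in both fractions.

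Same-numbered conventional arrays deviated from their group means together. In 5 of 5 numbers the CD15 positive array had the lower signal for each of the 7 genes. For the 6 genes whose conventional fractions did not overlap, this order had to follow. The share of all genes with this order was not computed, and the differences are given for their size alone. The smallest such differences were those of Rmc1, from -0.18 to -0.47 log2. They ran from -0.54 to -1.37 for Dusp8, from -1.36 to -1.88 for Plppr3, from -1.01 to -2.07 for Mmp24, from -1.38 to -2.47 for Ndrg4 and from -1.62 to -2.45 for Pdzrn3. Sez6l2 had -0.64 in number 6 and -2.23 in number 3.

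**Figure D3:**
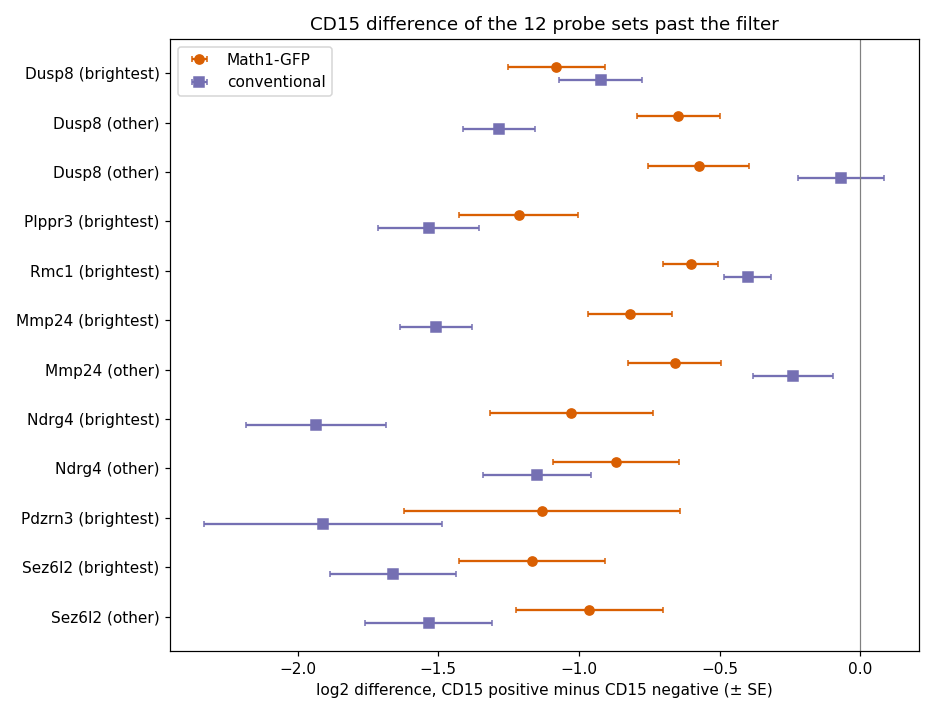
Log2 difference, CD15 positive minus CD15 negative, with its standard error (horizontal axis), for the 12 probe sets past the filter, from a fit to all 34945 probe sets with 1 gene symbol. All 12 lie below 0 in both models, and the dimmest Dusp8 probe set (-0.07) and the dimmer Mmp24 probe set (-0.24) are nearest to 0 in conventional tumours.

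The 7 genes did not always follow the same arrays. Among conventional CD15 negative arrays, number 5 was highest for 4 genes, Plppr3, Mmp24, Ndrg4 and Sez6l2. Among Math1-GFP CD15 negative arrays, number 10 was highest for 5 genes, all but Dusp8 and Plppr3, and Plppr3 was level in arrays 2 and 10 (234 each). Among Math1-GFP CD15 positive arrays, number 5 was lowest for Dusp8, Ndrg4, Pdzrn3 and Sez6l2. For Rmc1 it was highest by a small margin (117, against 116 in array 1). Marker levels went with some of these arrays and not with others. The mean log2 level of 14 neuronal differentiation genes was lowest in Math1-GFP CD15 positive array 5 (8.92, against 9.22 to 9.38 in the other 3), where Rmc1 was not lowest. It was highest in conventional CD15 negative array 5 (10.54, against 9.78 to 10.25 in the other 5). Math1-GFP CD15 negative array 10 was at 9.94, below array 2 at 10.08. Across groups, the summed signal of this list was 9706 to 15220 in Math1-GFP CD15 positive, 15160 to 23180 in Math1-GFP CD15 negative, 8658 to 15310 in conventional CD15 positive and 16680 to 33680 in conventional CD15 negative arrays. In conventional tumours 12 of these 14 genes fell in CD15 positive cells, where 10 of 11 genes for G2 and mitosis rose, against 5.09% of all genes lower and 3.05% higher (limma, adjusted p under 0.05). In Math1-GFP tumours none of the 14 and 1 of the 11 passed, against 0.0243% of all genes lower and 0.0162% higher. None of 9 microglia and macrophage genes passed in either model, and their summed signal ran from 292 to 1425 in Math1-GFP CD15 positive, from 182 to 474 in Math1-GFP CD15 negative, from 619 to 11760 in conventional CD15 positive and from 260 to 3379 in conventional CD15 negative arrays. None of 7 astrocyte genes passed either, but their summed signal did not overlap between the Math1-GFP fractions. It was 1256 to 7438 in CD15 positive against 428 to 1048 in CD15 negative arrays, with a median log2 difference of 1.31. Much of this lay in 1 array: the mean log2 level of these genes was 9.77 in Math1-GFP CD15 positive array 1. It was 7.34 to 7.55 in the other 3, against 6.40 to 6.87 in the Math1-GFP CD15 negative arrays. In conventional tumours the astrocyte sums overlapped, with 679 to 5533 in CD15 positive against 409 to 3614 in CD15 negative arrays. The part of these marker levels in the values of the 7 genes was not tested.

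The genes most like each member over the 21 arrays were also genes with less signal in CD15 positive cells. Likeness is Pearson's correlation of log2 values, given as a description, since all points share the 4 groups and the members were chosen on the difference between fractions. Sez6l2 was most like the neuronal kinesin Kif5a (r = 0.96), then Sema4g and Atp9a (both 0.94). Mmp24 was most like Apc2 (0.94), Syt11 (0.93) and the microtubule-associated protein tau, Mapt (0.92). Plppr3 was most like Parp6 (0.94), with Sez6l2 itself next (0.93) and then Wscd2 (0.93). Ndrg4 followed Synrg (0.96), D430019H16Rik (0.95) and Wdr13 (0.94), and Dusp8 followed Porcn (0.93), the adhesion molecule L1cam and Sema4g (both 0.88). Pdzrn3 was nearest to Ggt7 (0.92), Dctn1 (0.92) and Prdm8 (0.91), and Rmc1, with the lowest values, to Cbarp (0.90), Fbxo25 (0.86) and Ip6k2 (0.83). Among the 21 pairs of members r lay between 0.55 and 0.93 (median 0.82).

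The difference between tumour models was not used to choose the genes and could be tested, as Math1-GFP minus conventional over the mean of both fractions. None of the 7 genes passed (limma, Benjamini-Hochberg adjusted p over 12367 genes). An unadjusted p under 0.05 in limma was found for 1 of them, Rmc1, and for 5898 of all 12367 genes. In the same comparison 39.2% of all genes passed, 18.7% higher and 20.5% lower in Math1-GFP tumours. The fit took same-numbered conventional arrays as independent although they deviated together. This share may therefore be too large and the p-values between models too small. The arrays of the models overlapped for all 7 genes, while 3.57% of all genes were lower and 1.35% higher in every Math1-GFP array than in every conventional array. Of the calls 47.7% were higher in Math1-GFP, and 37.0% after quantile normalization. All conventional arrays have title endings that differ from those of all Math1-GFP arrays, so any difference in their handling and the tumour model cannot be told apart.

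Dusp8 ran from 127 to 491 (median 337) over the 9 Math1-GFP arrays and from 125 to 446 (median 250) over the 12 conventional arrays. Its log2 difference between models was -0.0063 (95% interval -0.25 to 0.24, adjusted p = 0.97). Mmp24 differed by -0.03 (-0.24 to 0.18, adjusted p = 0.83), Plppr3 by 0.07 (-0.22 to 0.36, adjusted p = 0.72) and Ndrg4 by 0.09 (-0.31 to 0.49, adjusted p = 0.73) on the same scale. These intervals, unadjusted for the number of genes, leave room for differences of up to 1.41-fold, the upper end for Ndrg4. All intervals between models may be too narrow, because the fit took same-numbered conventional arrays as independent. Sez6l2 was at 0.15 (-0.20 to 0.51, adjusted p = 0.51). Pdzrn3 was at 0.59 (-0.09 to 1.26, adjusted p = 0.16), and its interval reaches 2.39-fold. Rmc1 was at -0.15 (-0.30 to -0.0097, adjusted p = 0.084), and after quantile normalization it was lower in Math1-GFP tumours (-0.28, adjusted p = 0.0032). The signs of Plppr3 and Ndrg4 turned under that normalization, to -0.06 and -0.0087. Without Math1-GFP CD15 negative array 10 Rmc1 also passed (-0.18, adjusted p = 0.044). The signs of Dusp8 and Mmp24 depended on the processing too. Over 9 settings Dusp8 ran from -0.11 to 0.22 (lowest adjusted p in limma 0.065). Mmp24 ran from -0.17 to 0.235 (lowest adjusted p in limma 0.057).

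**Figure D4:**
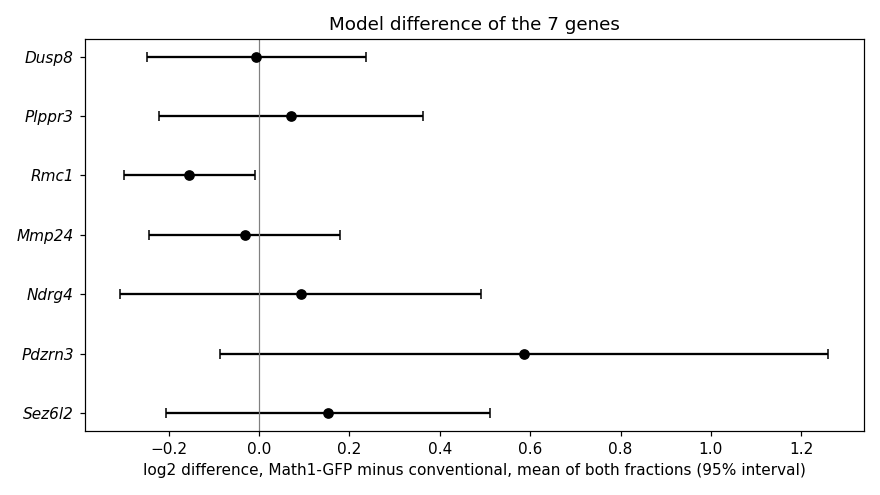
Log2 difference between models, Math1-GFP minus conventional, over the mean of both CD15 fractions, with its 95% interval (horizontal axis), for the brightest probe set of each of the 7 genes. The points lie between -0.15 (Rmc1) and 0.59 (Pdzrn3), and the Pdzrn3 interval is the widest.

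Other probe sets gave another picture of the model difference for 3 of the genes. When every probe set past the filter was tested, 1 other probe set each of Dusp8 (0.42, adjusted p = 0.0023), Mmp24 (0.50, adjusted p = 0.0012) and Ndrg4 (0.40, adjusted p = 0.033) was higher in Math1-GFP tumours, so 3 of the 12 probe sets passed, against 42.6% of all 23211. Within single fractions the differences between models, which share arrays with the values that chose the genes and were not tested, pointed in opposite directions for some genes. Mmp24 was 0.31 log2 higher in Math1-GFP than in conventional CD15 positive cells and -0.38 in CD15 negative cells, and Ndrg4 was at 0.55 and -0.36. Pdzrn3 was at 0.97 in CD15 positive and 0.20 in CD15 negative cells.

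Relatives and partners of the 7 genes were taken from 8 short lists, which hold 59 other genes, 53 of them past the filter. In conventional tumours 8 of the 53 fell in the CD15 positive cells and none rose, which is 15.1% called, against 8.13% of all genes (5.09% lower). Their median log2 difference was -0.15, against -0.017 for all genes, and 40 of the 53 were below 0. In Math1-GFP tumours none of the 53 passed in limma, against 0.0404% of all genes, and the median was -0.09. An unadjusted p under 0.05 in limma was found there for 6 of the 53, against 1073 of all 12367 genes. Between models 9 were higher and 8 lower in Math1-GFP tumours, or 32.1%, against 39.2% of all genes.

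The lists differed in how far the relatives shared the lower signal of the member. Among phospholipid phosphatases and their relatives, 3 of 7 other genes fell in conventional tumours, and all 3 belong to the Plppr group. Plppr1, which acts in neurite outgrowth, was at 131 to 505 in conventional CD15 positive and 317 to 1097 in conventional CD15 negative arrays (log2 difference -1.30 ± 0.31, SE, adjusted p = 0.012 in limma). Plppr2 changed by -0.66 ± 0.12 (adjusted p = 0.0017) and Plppr4 by -0.89 ± 0.26 (adjusted p = 0.037). The 3 Plppr genes had -0.99, -0.33 and -0.23 in Math1-GFP tumours, none past the test there. Plppr4 was dim, with a median signal of 39.5 in conventional CD15 positive and 83.2 in conventional CD15 negative arrays, and its call was lost with its 2 probe sets averaged (adjusted p = 0.12) and in 9 of the 21 fits that each omit an array, with adjusted p reaching 0.10 without conventional CD15 negative array 5. The Plppr5 difference was -0.52 (adjusted p = 0.19), and Plpp1, Plpp2 and Plpp3, the phosphatases proper, lay between -0.15 and 0.49 without passing.

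Of the other dual-specificity phosphatases, 1 of 8 fell in conventional tumours. That was Dusp4, which acts on MAP kinases in the nucleus (-0.97 ± 0.22, SE, adjusted p = 0.0084), with a median of 142 in conventional CD15 positive against 260 in conventional CD15 negative arrays. The groups did not overlap. The remaining 7 lay between -0.63 (Dusp5) and 0.18 (Dusp7) without passing. Among the JNK and p38 kinases, which Dusp8 acts on, their scaffolds and the kinases upstream of them, 3 of 12 fell. Mapk10, the JNK of neurons, was at 132 to 238 in conventional CD15 positive and 340 to 989 in conventional CD15 negative arrays, a log2 difference of -1.50 ± 0.24 (SE, adjusted p = 6.7e-04), and both its probe sets moved that way. The JNK scaffolds Mapk8ip2 (-0.75 ± 0.19, adjusted p = 0.015) and Mapk8ip1 (-0.52 ± 0.16, adjusted p = 0.043) fell too. Mapk8ip1 was lost under quantile normalization (adjusted p = 0.078) and in 12 of the 21 fits that each omit an array (the highest adjusted p was 0.093, without conventional CD15 negative array 6). It was also lost with no filter (adjusted p = 0.053), every probe set tested (0.052) or the conventional groups fitted alone (0.051). The same held with numbered conventional arrays only (0.063) and arrays 2 to 5 only (0.052), while the replicate block kept it (0.037, all in limma). The broadly expressed kinases Mapk8 (-0.15), Mapk9 (-0.30) and Mapk14 (0.07) did not pass.

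In the list of Sez6l2, Bace1 fell in conventional tumours (-0.67 ± 0.16, SE, adjusted p = 0.014), with 115 to 245 in conventional CD15 positive and 210 to 510 in conventional CD15 negative arrays, which overlapped. It did not pass with the conventional groups fitted alone (adjusted p = 0.0596). Sez6 (-0.41) and Sez6l (-0.22) did not pass, and Bace2 was below the filter. In the remaining 4 lists no other gene passed. The 10 other genes of the Rmc1 list, for its complex and for late endosome tethering, lay between -0.38 (Vps33a) and 0.21 (Ccz1). Of its complex partners, Mon1a and Mon1b were at -0.14 each and Ccz1 at 0.21. Ndrg1, Ndrg2 and Ndrg3 were at -0.26, -0.02 and -0.34, against -1.93 for Ndrg4. Pdzrn4, Lnx1 and Lnx2 were at -0.05, -0.45 and -0.32, and the membrane-type metalloproteinases Mmp14, Mmp16 and Mmp17 at 0.20, -0.18 and 0.02, against -1.51 for Mmp24. Those differences between members and relatives were not tested, because the members had been chosen for their own.

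**Figure D5:**
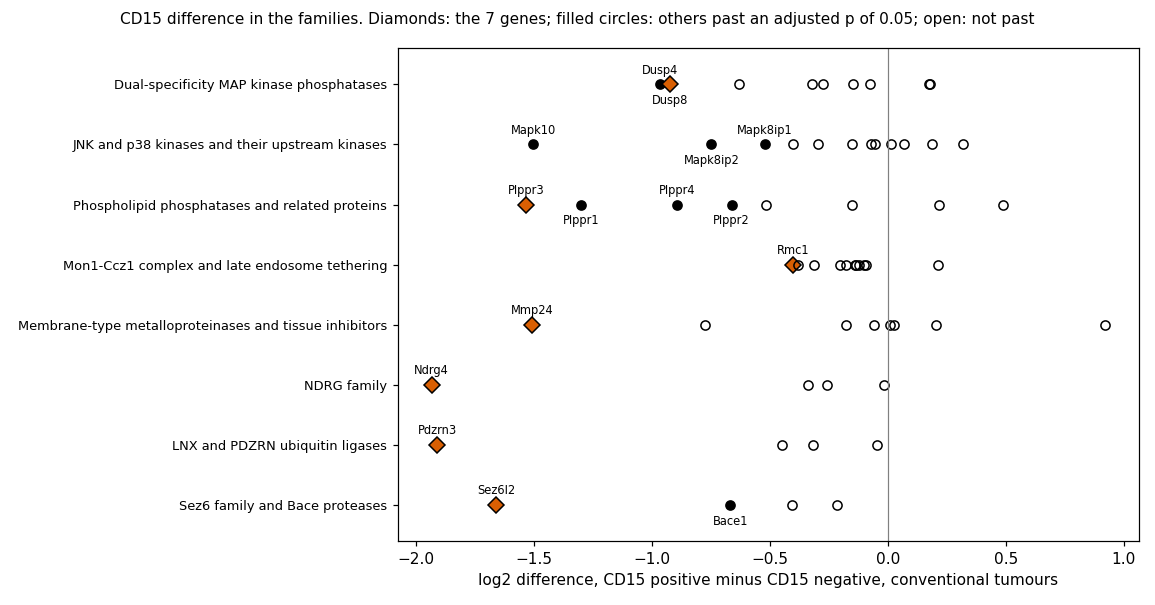
Log2 difference, CD15 positive minus CD15 negative, in conventional tumours (horizontal axis) for the genes of the 8 lists (rows), with the 7 chosen genes as diamonds, other genes past an adjusted p of 0.05 as filled circles and the rest open. The 8 filled circles lie at or below -0.52, and 4 lists hold none.

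Between models the relatives were called in both directions, in a comparison that called 18.7% of all genes higher and 20.5% lower in Math1-GFP tumours, so that their share is no larger than that of all genes. Among genes higher in Math1-GFP tumours were Mmp16 (0.77 ± 0.13, SE, adjusted p = 9.6e-05 in limma), Plppr2 (0.53 ± 0.09, adjusted p = 1.2e-04), Dusp5 (0.85 ± 0.23, adjusted p = 0.0059) and Sez6l (0.63 ± 0.16, adjusted p = 0.0039). Among genes lower there were the tissue inhibitor Timp3 (-1.23 ± 0.28, adjusted p = 0.0016), the p38 kinase Mapk12 (-0.82 ± 0.18, adjusted p = 0.0013), Dusp4 (-0.55 ± 0.17, adjusted p = 0.013) and Vps39 (-0.39 ± 0.09, adjusted p = 0.0016). In the same comparison 9 of 9 microglia and macrophage genes (median log2 difference -1.50) and 3 of 8 mural cell and fibroblast genes (median -0.74) were lower in Math1-GFP tumours, and their part in the values of the relatives was not tested. Vps39 did not pass when its probe sets were averaged (-0.11, adjusted p = 0.34), and nor did Mapk8ip1 (0.08, adjusted p = 0.65). The remaining calls were Mapk8, Mapk9, Mapk8ip1, Vps18 and Ndrg2, higher by 0.40 to 0.63, and Dusp2, Mon1b, Ndrg3 and Lnx2, at -0.27 to -0.43, and among them Mapk8, Mon1b, Ndrg2, Ndrg3 and Dusp2 each lost their call in several alternatives.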

How the data were processed

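Expression was measured on 21 Affymetrix Mouse Genome 430 2.0 arrays. The authors deposited linear intensities, 1 per probe set, and the steps behind them are not given in the sources used here. Each array has a mean of 150.0 after 2% is trimmed at each end. This was taken as a common scale, and log2(signal + 32) was analysed. The 64 control probe sets and those with several gene symbols (932) or none (9211) were left out, as were those with a mean log2 value under the 40th percentile (a signal of 15.5); the brightest probe set of each of 12367 genes was kept.

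Groups follow the titles. A model of 4 group means was fitted to all arrays in R 4.3.3 by limma 3.58.1, which left 17 degrees of freedom, with two-sided eBayes p-values, Benjamini-Hochberg adjustment over genes and a threshold of 0.05; it was tested on simulated data. The members and lists were chosen with earlier results of these data known. Named are the 7 genes, list genes past the test, and the 3 genes most correlated with each member.

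Titles number conventional arrays 2 to 6 in both fractions. Same-numbered arrays deviated together (r of deviations 0.58 to 0.76 in 5 pairs, -0.56 to 0.40 otherwise). The deposited labels do not state a pairing. The numbers were taken to pair arrays for the differences of same-numbered arrays and for the replicate block, which was run for the conventional comparison alone. The main fit, with the standard errors, intervals and p-values of the Results, took all arrays as independent. Alternatives were quantile normalization, a lower and a higher pseudocount, other filters, other probe set rules, other variance estimates, subsets of arrays, a replicate block and leaving out each array.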

Additional observations from a re-analysis of the deposited data

Results flagged for a closer look

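In 3 of the 60 combinations of a member's probe set and a group, 1 array stood far from the others of its group by Dixon's criterion, and chance gives about 1 in 20. The first was Dusp8 in Math1-GFP CD15 negative array 2, at a signal of 491 against 368 for the next array. The other 2 were in the Pdzrn3 probe set that did not pass the filter: 3.20 against 0.713 in Math1-GFP CD15 positive array 7, and 7.26 against 1.06 in conventional CD15 positive array 5. Both of these are near 0 in signal.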

How the results depend on the processing

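In none of the alternatives run did a member's CD15 difference change sign. The conventional comparison called 1006 genes, 0 within array 6 and the unnumbered arrays alone (967 at an unadjusted p under 0.05 in limma), and 606 to 1100 when 1 array was left out, with 606 without CD15 negative array 5. With the replicate block it called 1235 genes and kept the 8 list genes called (11 of 53 passed). The Math1-GFP comparison called 5 genes, 3 under quantile normalization or a pseudocount of 1, 17 with the higher pseudocount, 0 with every probe set tested, 8 with averaged probe sets, 11 with trend and robust estimation, 9 with the 2 groups alone and 0 to 26 when 1 array was left out, with 26 without conventional CD15 negative array 5. Leaving out Math1-GFP arrays 1 and 2, chosen after seeing the data, gave 0 (852 at an unadjusted p under 0.05). The model comparison called 4845 genes, and 9894 of 23211 with every probe set tested. In array 6 and the unnumbered arrays alone, none of the 8 list genes that fell passed. Averaging probe sets moved Mmp24 to -0.87 in conventional and Dusp8 to -0.77 in Math1-GFP tumours; the higher pseudocount moved Plppr3 to -0.76 in Math1-GFP and -0.94 in conventional tumours, and Rmc1 to -0.39 and -0.27. Sez6l2 was at -1.09 within array 6 and the unnumbered arrays. The causes were not tested.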
